A study of Mus musculus with 9 samples.

Results

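T and NK cell barcodes are the droplets of a mouse liver single-cell data set whose transcripts include the genes of T lymphocytes and natural killer (NK) cells. They were 223 of the 44898 cell barcodes with at least 200 detected genes in 9 livers, or 0.497%. Barcodes were chosen by their marker counts: a barcode was taken when it held at least 3 unique molecular identifiers (UMIs, each standing for 1 captured transcript) from at least 2 of 12 genes, and more of them than of 5 Kupffer cell genes or 4 endothelial genes. The 12 genes were Cd3d, Cd3e, Cd3g, Trac, Trbc1, Trbc2, Nkg7, Gzma, Ccl5, Ms4a4b, Cxcr6 and Klrd1. Because these values chose the barcodes, the levels of the 12 genes are a description and carry no test.

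T cells recognise antigen through a T cell receptor, whose constant chains (Trac, Trbc1, Trbc2) are held at the surface by the CD3 proteins, and the signal is passed on by kinases such as Lck. NK cells lack that receptor and use activating and inhibitory receptors, many of them of the Klr lectin family, and both kinds of cell can kill targets with perforin and granzymes. The liver sinusoids are known for a large resident population of lymphocytes, including NK cells, type 1 innate lymphoid cells, NKT cells and CD8 T cells, several of which carry the chemokine receptor CXCR6.

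The livers came from wild-type male C57BL/6 mice, 8 weeks old, 3 in each group. The groups were injected intravenously with PBS (mice 1, 4 and 7), with AAVrh.10Null (mice 2, 5 and 8) or with AAVrh.10mCherry (mice 3, 6 and 9), the last an adeno-associated virus serotype rh.10 vector named for the red fluorescent protein mCherry. All mice carried the same genotype, and no other agent is named. Neither the vector dose nor the time between injection and harvest is stated in the sources used here.

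Total depth was 1083091 (mouse 7) to 11220152 (mouse 1) UMIs per mouse. Mouse 7 stood apart, with 3050 of its 3600 barcodes under 200 genes. The T and NK barcodes held 297309 UMIs in all, from 3964 in mouse 7 to 103662 in mouse 4, with a median of 1154 per barcode. Within a mouse their median was 398.5 (mouse 7) to 2219 (mouse 1) UMIs, higher than that of the other barcodes in 8 of 9 mice. No T and NK barcode sequence occurred in more than 1 library. Levels below are summed over the T and NK barcodes of a mouse and given as CPM, the UMIs of a gene in 1000000 UMIs of those barcodes. At these depths 3 UMIs, the limit that a count of 0 allows, come to 28.9 CPM in mouse 4 and 757 CPM in mouse 7.

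The rule left some barcodes close to its limit. Of the 223, 17 had exactly 3 UMIs of the 12 genes and 19 had 4, whereas 117 had 10 or more. The median was 10 UMIs from 5 genes, and the highest sum was 73. Just outside, 11 barcodes held 2 UMIs from 2 genes, 7 held enough UMIs from 1 gene alone, and 2 were lost to another class. Kupffer cell or endothelial rule genes were seen in 6 of the 223. Of the remaining barcodes of each mouse, 0.223% to 1.29% held at least 1 UMI of the 12 genes.

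Among the rule genes, Ccl5 (146 barcodes), Ms4a4b (144), Trbc2 (143) and Nkg7 (126) were seen in the most barcodes. Ms4a4b encodes a membrane protein of T cells and had 281 UMIs. Trbc2, a constant segment of the receptor beta chain, was seen in 143 barcodes (64.1%) with 346 UMIs. Its level was 1108, 1186 and 1261 CPM in PBS mice 1, 4 and 7, was 1293, 1068 and 2064 in AAVrh.10Null mice 2, 5 and 8, and was 1144, 1226 and 519 in AAVrh.10mCherry mice 3, 6 and 9. The 3 groups overlapped, with the highest value in mouse 8 and the lowest in mouse 9. In mouse 8, 1 barcode held 35 of the 47 Trbc2 UMIs, so its level rests largely on that barcode. Trac, the alpha chain constant gene, was seen in 93 barcodes, Cd3d in 90, Cd3g in 94 and Cd3e in 38. Trac ranged from 89.0 CPM in mouse 5 to 1261 in mouse 7, values that rest on 1 and 5 UMIs. Every mouse held both receptor chain transcripts.

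Ccl5, a chemokine made by activated and memory T cells and by NK cells, was seen in 146 barcodes (65.5%) with 756 UMIs. Its level was 725, 2277 and 4036 CPM in PBS mice 1, 4 and 7. In the AAVrh.10Null mice it was 2927, 890 and 3690, and in the AAVrh.10mCherry mice 3695, 2986 and 2448. The lowest values were in mice 1 and 5, and the groups overlapped. Nkg7, a cytotoxic granule protein, was seen in 126 barcodes at 495 (mouse 9) to 1261 (mouse 7) CPM. Cxcr6, the receptor tied to residence in the sinusoids, was seen in 84 barcodes at 173 (mouse 9) to 1009 (mouse 7) CPM. The T and NK barcodes of mouse 7 held 3964 UMIs in all, so its levels rest on few UMIs.

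Gzma, which encodes granzyme A, was concentrated in few barcodes. It had 204 UMIs in 34 barcodes, and 13 barcodes with at least 5 UMIs each held 160 of them, with a maximum of 38 in 1 barcode. The level was 42.6, 598 and 252 CPM in the PBS mice, 408, 1068 and 220 in the AAVrh.10Null mice and 2191, 597 and 618 in the AAVrh.10mCherry mice. Mouse 3 was highest, with 67 UMIs in 5 of its 16 barcodes, and the groups overlapped.

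The name of the class was checked against leukocyte and lymphocyte genes that the rule did not use. Over 15 pan-leukocyte genes the summed level was 6091 CPM, against 49.3 in all other barcodes, and 15 of 15 genes were higher. As background, 33.1% of the 26282 genes with any UMI, and 71.2% of the 12201 genes with a UMI in the T and NK barcodes, were higher there than in the others. The Kupffer rule barcodes had 2400 CPM for this list, which marks leukocytes of any kind and not T and NK cells alone. Cd52, a small surface glycoprotein of lymphocytes, was at 1023, 1756 and 3027 CPM in the PBS mice, 1532, 1068 and 2064 in the AAVrh.10Null mice and 1112, 1194 and 791 in the AAVrh.10mCherry mice. The other barcodes of those mice had 3.79 to 45.2, so the ranges did not meet. Ptprc, the CD45 phosphatase of all leukocytes, lay between 594 (mouse 9) and 1257 (mouse 6) CPM.

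The GIMAP genes encode GTPases of the lymphocyte immune-associated family and lie in 1 gene cluster. Their summed level was 3081 CPM, against 44.3 in the other barcodes, and 8 of 8 were higher. Gimap4 was seen at 597, 1177 and 757 CPM in the PBS mice, 681, 712 and 879 in the AAVrh.10Null mice and 1210, 1603 and 1088 in the AAVrh.10mCherry mice. The other barcodes had 5.18 to 20.9. For 18 genes of T cell receptor signalling the sum was 2358 against 30.6 CPM, with 18 of 18 higher. Thy1, the surface antigen of mouse T cells, was at 256, 376 and 0 CPM in the PBS mice, 374, 89.0 and 483 in the AAVrh.10Null mice and 327, 220 and 346 in the AAVrh.10mCherry mice. The 0 in mouse 7 allows up to 757 CPM, so it is no sign of a lower level. Lck, the kinase at the CD4 and CD8 tails, was at 0 in mouse 7 as well and at 128 to 440 CPM in the other 8 mice.

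NK receptors and their factors summed to 1668 CPM, against 22.1 in the other barcodes, and 17 of 17 genes were higher. The Kupffer rule barcodes had 2127 CPM for this list, above the T and NK barcodes, although 15 of the 17 genes were higher in the T and NK barcodes. The exceptions were Fcer1g and Tyrobp, adaptors that macrophages also use, which had 51 against 260 and 57 against 296 UMIs and were the only list genes tested against Kupffer rule barcodes, both lower (log2 changes -2.68 and -2.72). Klrb1c, which encodes the NK1.1 antigen of C57BL/6 NK and NKT cells, was at 42.6, 231 and 0 CPM in the PBS mice, 136, 178 and 132 in the AAVrh.10Null mice and 229, 471 and 74.2 in the AAVrh.10mCherry mice. The groups overlapped, with the highest level in mouse 6. Xcl1, a chemokine of NK and CD8 T cells that attracts cross-presenting dendritic cells, was detected in all 9 mice. Its level was 89.0 (mouse 5) to 505 (mouse 7) CPM, both under the level of 3 UMIs in those mice (267 and 757 CPM). Gzmb, granzyme B, was detected in all 9 as well, at 43.9 (mouse 8) to 445 (mouse 9) CPM, values that rest on 1 and 18 UMIs. Over 15 cytokine and chemokine genes the sum was 1386 CPM against 8.53, with 13 higher. For 14 genes of liver residency and homing it was 1026 against 37.7, with 12 higher. The Kupffer rule barcodes had 804 CPM for the residency and homing list, and only 8 of its 14 genes were higher in the T and NK barcodes.

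**Figure D1:**
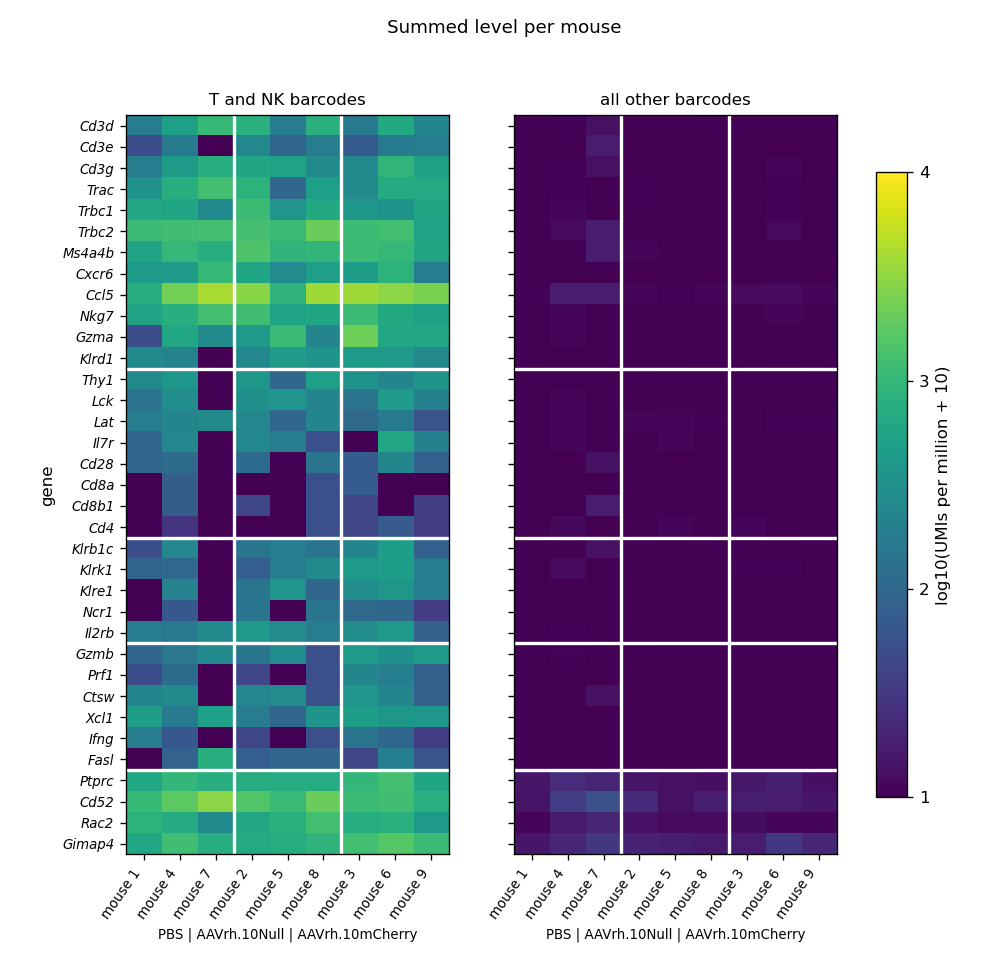
Colour map of the summed level (log10 of CPM plus 10) of rule genes and further genes, 1 row per gene and 1 column per mouse, for the T and NK barcodes and for all other barcodes, with mice ordered by treatment. The T and NK panel is bright for the lymphocyte genes in nearly every mouse, with dark cells, at 0 UMIs, for Thy1, Lck and others in mouse 7, while the panel of other barcodes is dark. White lines part the treatments and the gene groups.

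The barcodes could be split by the transcripts they held. NK receptor genes here are Ncr1, Klrb1c, Klrk1, Klre1, Klrc1, Klra4, Klra7, Klra8, Klra9 and Eomes, of which only the summed presence was used. Receptor chain or CD3 UMIs without an NK receptor UMI were seen in 127 barcodes (57.0%), both kinds in 79 (35.4%), NK receptor UMIs alone in 16 (7.17%) and neither in 1. The median depth of the 3 sets was 1154, 1185 and 1076.5 UMIs. A UMI that is not seen is no proof of absence at these depths, so the sets are ranges of detection and not cell types.

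Gzma, Gzmb and Prf1 transcripts lay mostly in barcodes with NK receptor transcripts, while other cytotoxic genes were divided. Gzma had 5 UMIs in the 127 barcodes with receptor chains alone (30.3 CPM), 131 in the 79 with both (1162 CPM) and 68 in the 16 with NK receptors alone (3770 CPM). All 13 barcodes with at least 5 Gzma UMIs held an NK receptor UMI. Ccl5 was at 1516, 3353 and 7042 CPM in the same order of sets. Prf1, which encodes perforin, had 5, 12 and 13 UMIs, and Gzmb had 12, 43 and 12. Most UMIs of Fasl (15, 9 and 1), Srgn (94, 64 and 6) and the lysosomal membrane gene Lamp1 (82, 42 and 7) were in the set with receptor chains alone, which is the largest. By level, Fasl was at 90.9, 79.8 and 55.4 CPM, Srgn at 570, 568 and 333, and Lamp1 at 497, 373 and 388. Nkg7 had 102, 101 and 25 UMIs, Ctsw 23, 35 and 6, and Cst7 7, 10 and 2. The signalling adaptors Fcer1g and Tyrobp, which pair with NK receptors, had 5, 31 and 15 UMIs and 7, 31 and 18 UMIs. No test was made, since the barcodes of a mouse are not replicates and Gzma, Ccl5 and Nkg7 belong to the rule. A barcode without receptor chain or CD3 UMIs could enter only through these genes, Ms4a4b, Cxcr6 or Klrd1. High levels of rule genes in the set with NK receptors alone were therefore in part fixed by the rule.

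Coreceptor transcripts were sparse. Cd8a (10 UMIs) or Cd8b1 (11 UMIs) was seen in 11 barcodes (4.93%) and Cd4 in 7 (3.14%), and no barcode held both. Of 122 barcodes with at least 2 beta chain constant UMIs, 71 held Trbc1 or Trbc2 alone. A single T cell uses 1 beta constant gene, and 51 barcodes held both. The 2 genes are near-identical in sequence, which makes the split of reads between them uncertain. Per mouse, the share of barcodes with a Cd8a or Cd8b1 UMI was 0% and 6.41% in PBS mice 1 and 4, was 3.23%, 0% and 14.3% in the AAVrh.10Null mice and was 12.5%, 0% and 4.0% in the AAVrh.10mCherry mice. These shares rest on at most 5 barcodes a mouse, the groups overlapped, and exact two-sided permutation p were 0.857 to 1.

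**Figure D2:**
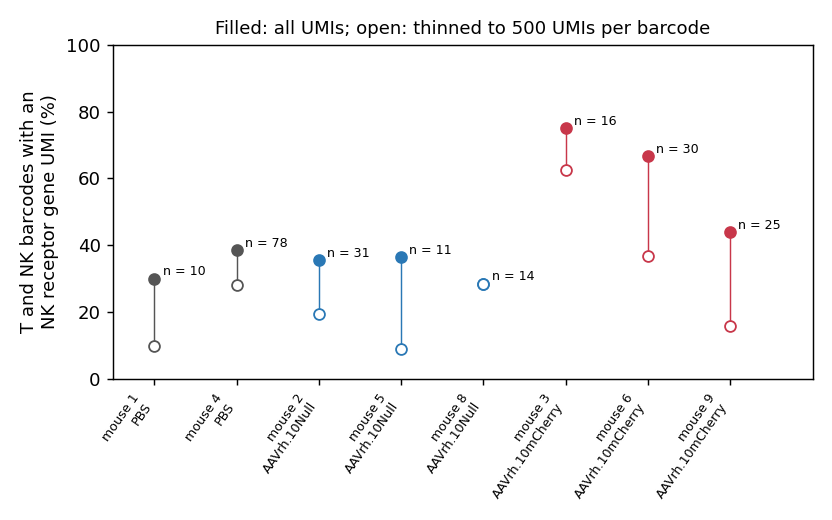
Share of T and NK barcodes with at least 1 UMI of 10 NK receptor genes (y axis, percent) for each mouse with at least 10 such barcodes, as counted (filled points) and after thinning every barcode to 500 UMIs (open points), with the number of barcodes beside each. As counted, the AAVrh.10mCherry mice lie at 44.0% to 75.0% and the other mice at 28.6% to 38.5%; after thinning the groups overlap.

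The share of T and NK barcodes with an NK receptor UMI was higher in the AAVrh.10mCherry mice as counted, but the difference did not pass a test. It was 30.0% and 38.5% in PBS mice 1 and 4, was 35.5%, 36.4% and 28.6% in AAVrh.10Null mice 2, 5 and 8, and was 75.0%, 66.7% and 44.0% in AAVrh.10mCherry mice 3, 6 and 9. Mouse 7, with 0 of 8 barcodes, was left out because it had fewer than 10. The means were 34.2 ± 5.98% (SD, n = 2), 33.5 ± 4.27% (SD, n = 3) and 61.9 ± 16.0% (SD, n = 3). The AAVrh.10mCherry values did not overlap with the others. Their exact two-sided permutation p was 0.2 against PBS and 0.1 against AAVrh.10Null, which are the smallest values these group sizes allow, and both were 0.8 after Benjamini-Hochberg adjustment over 12 tests. When barcodes were thinned to 500 UMIs the shares were 10.0% and 28.2%, then 19.4%, 9.09% and 28.6%, then 62.5%, 36.7% and 16.0% in the same order. The groups then overlapped, with exact permutation p of 0.4 and 0.3.

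**Figure D3:**
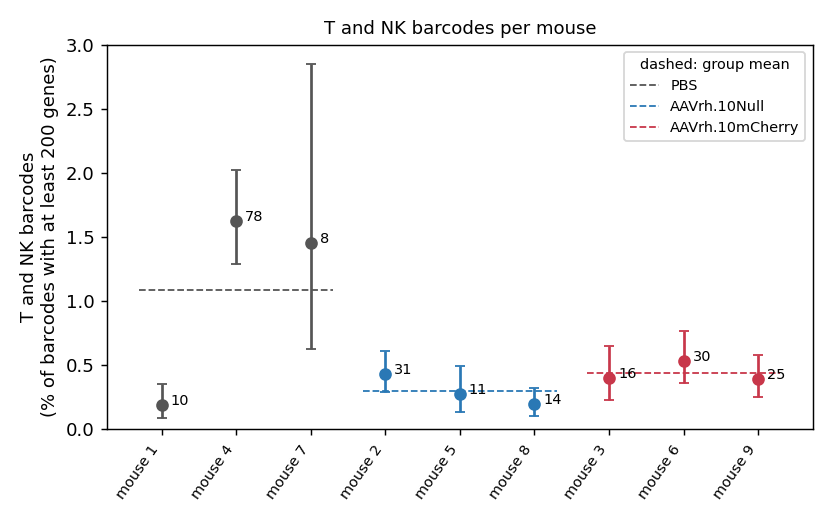
T and NK barcodes as a percentage of barcodes with at least 200 genes (y axis) for each of the 9 mice, with exact 95% binomial intervals as bars, group means as dashed lines and the number of barcodes beside each point. Mice 4 and 7 (PBS) are at 1.63% and 1.45%, mouse 1 (PBS) at 0.192%, and the 6 vector mice between 0.195% and 0.537%. The value of mouse 7 is of 550 barcodes, as most of its barcodes had under 200 genes.

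The number of T and NK barcodes varied most among the PBS mice. They made up 0.192% (10 barcodes, exact 95% interval 0.0923% to 0.354%), 1.63% (78, 1.29% to 2.02%) and 1.45% (8, 0.630% to 2.85%) of the barcodes of PBS mice 1, 4 and 7. In AAVrh.10Null mice 2, 5 and 8 they were 0.431% (31 barcodes), 0.275% (11) and 0.195% (14). In AAVrh.10mCherry mice 3, 6 and 9 they were 0.400% (16), 0.537% (30) and 0.391% (25). Mouse 1 lay below all 6 vector mice, and mice 4 and 7 lay above all 6, so the groups overlapped. The share of mouse 7 is of only 550 barcodes, since 3050 of its 3600 had under 200 genes, against 2 to 17 in the other mice. Of those 3050, 0 met the rule for T and NK barcodes, so the 200-gene minimum raised this share and the PBS mean. The group means were 1.09 ± 0.783%, 0.300 ± 0.120% and 0.443 ± 0.0819% (SD, n = 3 each). Exact two-sided permutation tests gave p = 0.4 for each vector against PBS, 0.167 for both vectors against PBS and 0.3 for AAVrh.10mCherry against AAVrh.10Null, all 0.8 after adjustment. The smallest p that 3 against 3 mice allow is 0.1. Intervals cover counting error only, and a share of barcodes also depends on how many other cells were captured.

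Lists that mark other cells had levels in the T and NK barcodes from 0 to above those of all other barcodes. The whole Kupffer cell and macrophage list came to 8 UMIs in 6 barcodes (26.9 CPM, against 8523 in the Kupffer rule barcodes), and the neutrophil list came to 0 UMIs. The endothelial list came to 16 UMIs (53.8 CPM, against 3948 in the endothelial rule barcodes), platelet and mast cell or basophil lists to 1 UMI each, and red cell genes to 11. Of 10 B cell genes, 2 were seen, with 21 UMIs, of which 20 were Ighm. The B cell list was at 70.6 CPM, against 22.7 in all other barcodes and 48.6 in the Kupffer rule barcodes. It was above the other barcodes in 7 of 9 mice. The monocyte and dendritic cell list had 122 UMIs (410 CPM), against 327 CPM in all other barcodes and 7285 in the Kupffer rule barcodes. Stellate cell and fibroblast genes had 43 UMIs in 16 barcodes (145 CPM, against 164 in all others), with 511 CPM in mouse 1. The plasma cell list had 38 UMIs in 36 barcodes, all of Xbp1, at 128 against 177 CPM, and the cholangiocyte list had 4 UMIs.

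Hepatocyte transcripts were abundant in every barcode class. The 12 hepatocyte genes summed to 88548 CPM in the T and NK barcodes, 140670 in all others, 81107 in the Kupffer rule barcodes and 92399 in the endothelial rule barcodes. Alb, the serum albumin gene, was at 26043, 26760 and 24975 CPM in the PBS mice, 18889, 29189 and 20425 in the AAVrh.10Null mice and 22658, 16342 and 29580 in the AAVrh.10mCherry mice. The other barcodes had 33807 to 47644, above the T and NK barcodes of all 9 mice. Lymphocytes are not known to make albumin, and the part of free RNA in each level was not tested.

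Against all other barcodes, 662 of 9010 genes were higher (7.35%) and 1685 lower (18.7%) at an adjusted p under 0.05 in edgeR's quasi-likelihood test with the mouse as a block, over the 4 mice with at least 20 T and NK barcodes (mice 2, 4, 6 and 9). The balance of directions depended on the scaling. Of all calls, 28.2% were higher under TMM scaling, 41.4% under RLE scaling and 78.1% when library totals were used, where 1480 genes were higher and 416 lower. The median log2 change of all genes was -0.57, -0.30 and 0.35 under these. Without mouse 4, which held 78 of the 223 barcodes, 400 genes were higher. Directions are therefore given below for genes that kept theirs under each scaling, unless a sentence says otherwise.

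Surface receptors and chemokines of T and NK cells led the higher genes. Cd7, a costimulatory surface protein of T and NK cells, had 66 UMIs in the T and NK barcodes of the 4 mice and 5 in all other barcodes, a log2 change of 9.49 (SE 0.56, edgeR adjusted p = 2.5e-62). Xcl1 had 49 against 4 UMIs (log2 9.45), Gzmb 47 against 5 (9.10), Thy1 71 against 8 (8.94) and Klrb1c 46 against 5 (8.72). Il7r, the interleukin 7 receptor that sustains T cells, had 58 against 9 UMIs (log2 8.46). Il2rb, a chain of the interleukin 2 and 15 receptors, had 44 against 7 (8.45), and the inhibitory receptor gene Cd160 had 44 against 6 (8.57). The NK receptor gene Klre1 (44 against 1 UMIs), the chemokine receptor gene Cxcr3 (26 against 1), the T cell transcription factor gene Bcl11b (24 against 1), the costimulator gene Cd28 (24 against 2), Prf1 (21 against 2) and the death ligand gene Fasl (18 against 3) had too few UMIs elsewhere for a fold change. These genes met the level filter through the T and NK barcodes themselves, so that they differ was fixed by the filter and their number supports nothing.

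Genes with 0 UMIs in the T and NK barcodes of the 4 mice led the lower side. Slc40a1, the iron exporter ferroportin, had 1562 UMIs in the other barcodes and was at least 4.37-fold lower, where the bound rests on 3 UMIs over the class. Cebpb, a transcription factor of liver and myeloid cells, was at least 2.59-fold lower, and Abcg8, a sterol transporter of hepatocytes, at least 2.34-fold. Lpl, lipoprotein lipase, was at least 1.29-fold lower and did not pass without mouse 4 or in DESeq2. These genes met the level filter through the other barcodes alone, so their passing and their number support nothing.

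Promoters of 3 of these genes are shown with their matches to short motifs of transcription factor families that act in lymphocytes. They are the 250 bases before the start of each gene from RefSeq (GRCm38.p6), 5′ to 3′ on the gene's strand. Capitals mark matches to the ETS core GGAAGT (or ACTTCC), the RUNX core TGTGGT (or ACCACA) and the T-box motif TCACACC (or GGTGTGA), and the motifs do not overlap one another here.
Xcl1, chr1:164935523-164935772, minus strand: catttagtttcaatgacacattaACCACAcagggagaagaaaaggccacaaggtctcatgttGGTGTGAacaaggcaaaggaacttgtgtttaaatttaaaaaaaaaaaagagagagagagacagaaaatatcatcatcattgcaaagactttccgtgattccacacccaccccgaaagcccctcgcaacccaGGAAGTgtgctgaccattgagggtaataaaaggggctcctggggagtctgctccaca
Gzmb, chr14:56262335-56262584, minus strand: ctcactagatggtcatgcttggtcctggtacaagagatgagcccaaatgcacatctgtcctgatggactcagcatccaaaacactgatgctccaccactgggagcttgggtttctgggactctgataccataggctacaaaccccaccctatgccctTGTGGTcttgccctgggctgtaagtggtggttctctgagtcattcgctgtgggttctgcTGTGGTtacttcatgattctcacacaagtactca
Klrb1c, chr6:128788642-128788891, minus strand: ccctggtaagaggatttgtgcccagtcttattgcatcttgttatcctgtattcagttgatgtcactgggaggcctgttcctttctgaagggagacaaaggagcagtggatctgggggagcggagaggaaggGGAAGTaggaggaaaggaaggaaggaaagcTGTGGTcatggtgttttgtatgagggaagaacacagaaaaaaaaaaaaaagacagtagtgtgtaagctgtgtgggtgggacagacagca

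Of the 20 genes named as higher against all other barcodes, 13 were matched in the RefSeq table, with 16 promoters. The ETS core was found in 11 of the 16 (68.8%) and the RUNX core in 11 (68.8%), and the T-box motif in 2 (12.5%). Among all 32851 promoters of the same length, the shares were 19.7%, 14.0% and 3.33%. Of the 12 rule genes, 7 were matched, and 3, 3 and 1 of their 7 promoters (42.9%, 42.9% and 14.3%) held the motifs. Xcl1 held a match of each kind, Gzmb held 2 RUNX core matches, and Klrb1c held 1 ETS and 1 RUNX core. A match says only that these letters occur, and several promoters can belong to 1 gene, so no test was made.

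The comparison with Kupffer rule barcodes, the resident liver macrophages by their genes, sets the T and NK barcodes against another leukocyte. Over 8 mice (all but mouse 7) and 410 genes, 78 were higher (19.0%) and 75 lower (18.3%) by edgeR's quasi-likelihood test with the mouse as a block. Without the block, 38 were higher. Gimap4 had 316 UMIs in the T and NK barcodes and 2 in the Kupffer rule barcodes. Tmsb10, an actin-binding thymosin, had 230 against 5 UMIs and was higher by 4.75 on the log2 scale (SE 0.39). Rac2 was higher by 1.98, Cd52 by 1.29 and Ptprc by 1.13. Cd52 was at 1318 ± 427 CPM in the T and NK barcodes and 460 ± 247 in the Kupffer rule barcodes (SD, n = 8), and Ptprc at 810 ± 228 and 324 ± 133. Id2, a regulator needed for NK and innate lymphoid cells, was higher by 1.28. On the other side, Aif1, a macrophage calcium-binding protein, had 0 against 293 UMIs and was at least 107-fold lower, where the bound rests on 3 UMIs over the class. Cybb, the phagocyte oxidase subunit, had 0 against 194 UMIs and was at least 71.1-fold lower. Lyz2, the macrophage lysozyme, had 2 against 1232 UMIs, and the antigen presentation genes Ctss and Cd74 had 7 against 714 and 10 against 558. Gimap4, Tmsb10, Aif1, Cybb, Lyz2, Ctss and Cd74 met the level filter through 1 class alone, so that they differ was fixed by the filter.

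Against endothelial rule barcodes (mice 2, 4, 6 and 9, 1111 genes), 183 genes were higher (16.5%) and 198 lower (17.8%) by the same edgeR test. Several lymphocyte genes had 0 UMIs in the endothelial rule barcodes. Rac2 (131 UMIs) was at least 78.4-fold higher, Gimap3 (110) at least 65.8-fold, Ms4a6b (84) at least 50.3-fold, Thy1 (71) at least 42.5-fold, Cd7 (66) at least 39.5-fold and the lymphoid transcription factor gene Ikzf1 (35) at least 20.9-fold. Cd52 was higher by 6.21 and Ptprc by 5.73 on the log2 scale. The GIMAP genes were divided in this comparison. Gimap4 was higher by 1.53 (edgeR adjusted p = 2.8e-14), while Gimap6 differed by 0.21 and did not pass (adjusted p = 0.53). Summed, GIMAP genes were at 928 CPM in the endothelial rule barcodes, against 3081 in the T and NK barcodes. Genes at 0 UMIs in the T and NK barcodes included Tspan7 (at least 41.8-fold lower), Dab2 (33.2), the TGF-beta coreceptor gene Eng (23.6) and the hyaluronan receptor gene Lyve1 (23.4). All genes at 0 UMIs in 1 class met the level filter through the other class alone, so that they differ was fixed by the filter.

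Among 383 genes tested in all 3 comparisons, 56 outside the rule were higher in the T and NK barcodes each time. They included Gimap4, Cd52, Ptprc, Rac2, Id2, the granule proteoglycan gene Srgn, the actin regulators Tmsb10, Lcp1 and Arhgdib, the nucleolar genes Ncl and Npm1, and many ribosomal protein genes. The T and NK barcodes are in all 3 comparisons, which therefore share data.

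Ribosomal protein transcripts took a larger share of the T and NK barcodes than of any other class in every mouse. They were 5.20%, 9.27% and 9.49% of UMIs in PBS mice 1, 4 and 7, were 6.79%, 4.05% and 13.6% in AAVrh.10Null mice 2, 5 and 8, and were 5.38%, 10.2% and 6.59% in AAVrh.10mCherry mice 3, 6 and 9. The other barcodes had 1.86% to 3.33%, below the lowest of these. The means were 7.84 ± 3.03% in the T and NK barcodes, 2.49 ± 0.557% in all others, 4.34 ± 0.959% in the Kupffer rule barcodes and 3.37 ± 1.0% in the endothelial rule barcodes (SD, n = 9). These genes are expressed in all classes, and the list was chosen after its values were seen. Of 75 tested against all others, 50 were higher and 0 lower (background 7.35% and 18.7%). In the Kupffer comparison 45 of 65 were higher and 0 lower (background 19.0% and 18.3%). In the endothelial comparison 69 of 72 were higher and 0 lower (background 16.5% and 17.8%). Without the mouse block the counts were 18, 19 and 58, and with library totals 75 were higher against all others. Many ribosomal protein genes have pseudogenes with near-identical sequence, so single members are uncertain.

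Mitochondrial transcripts took a smaller share than in all other barcodes. They made up 2.17% to 8.77% of UMIs in the T and NK barcodes (5.79 ± 2.31%, SD, n = 9) and 3.46% to 17.9% in the others (9.86 ± 4.81%), and were lower in 9 of 9 mice. Kupffer rule barcodes had 6.48 ± 4.12% and endothelial rule barcodes 6.83 ± 3.04%. The T and NK share was higher than the Kupffer share in 6 of 9 mice, and the Kupffer mean was raised by mouse 6, at 16.2%. Of 14 mitochondrial genes tested against all others, 10 were lower and 0 higher by edgeR, where 18.7% and 7.35% of all genes were. Against Kupffer rule barcodes 3 of 8 were higher and 2 lower, where 19.0% and 18.3% of all genes were. Against all others, hepatocyte genes were lower, 12 of 12 by edgeR. Their median log2 change was -1.69 (all genes -0.57), or -0.74 under library totals (all genes 0.35). The part of one in the other was not tested.

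**Figure D4:**
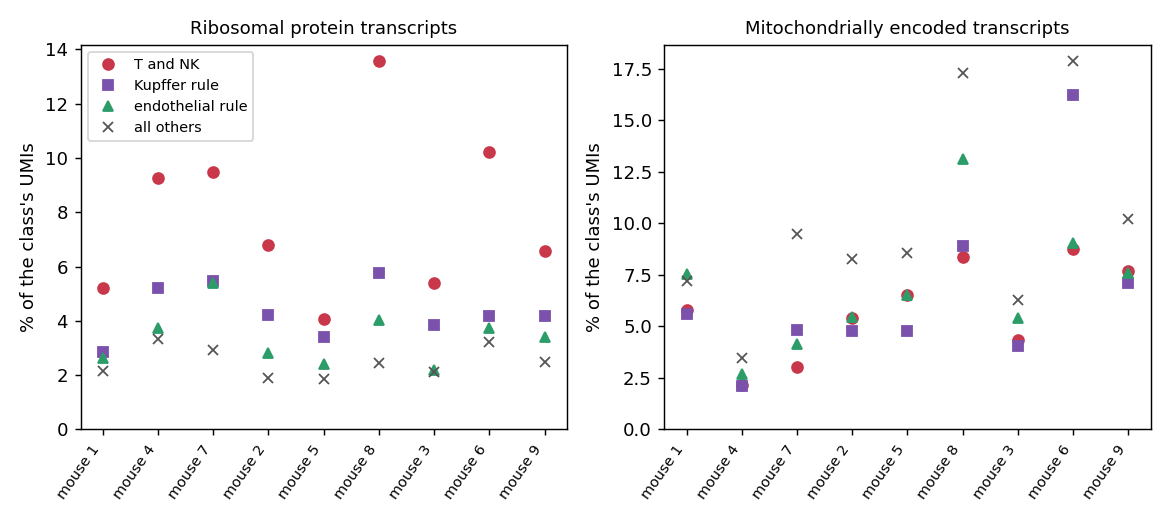
Percentage of UMIs from ribosomal protein genes (left) and mitochondrial genes (right) in each of the 9 mice, with points for the T and NK, Kupffer rule, endothelial rule and all other barcodes. Ribosomal shares of T and NK barcodes (4.05% to 13.6%) are the highest of the 4 classes in every mouse, and their mitochondrial shares lie below those of all other barcodes.

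Interferon response genes were higher in part. Against all others, 9 of 20 tested passed as higher and 1 as lower, where 7.35% and 18.7% of all genes did. Gbp4, an interferon-induced GTPase, was higher by 4.33 on the log2 scale, Ifi203 by 3.42, Ifi27l2a by 2.99, the surface antigen gene Ly6a by 2.71, Gbp2 by 2.45, the GTPase gene Ifi47 by 2.35 and the transcription factor gene Irf1 by 2.0. Bst2, tetherin, was the gene that was lower, and with library totals 11 were higher and 0 lower. The direction was not shared with endothelial rule barcodes: against them Ifi47 was higher by 1.59, while Ly6a was lower (log2 change -1.30) as was Bst2 (-1.47). Summed, the list stood at 1769 CPM in the T and NK barcodes, 394 in all others, 2224 in Kupffer rule and 1349 in endothelial rule barcodes.

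For the class I antigen presentation genes, 5 of 10 passed as higher and 0 as lower against all others by edgeR, where 7.35% and 18.7% of all genes did. The immunoproteasome genes Psmb8 and Psmb9 were higher by 2.50 and 1.89 on the log2 scale, the peptide transporter gene Tap2 by 2.44, and the class I genes H2-Q7 and H2-D1 by 2.38 and 1.55. The class I genes are near-identical paralogs, and their counts are uncertain. B2m, the class I light chain, changed sign with the scaling, at -0.22 under TMM and 0.73 with library totals. Against Kupffer rule barcodes 0 of 3 genes tested passed, where 19.0% of all genes were higher and 18.3% lower. Against endothelial rule barcodes Psmb8 was higher by 2.21.

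Transcripts of mCherry, the protein named in 1 vector, were seen in T and NK barcodes of all 3 mice that received it. They had 146 UMIs in mouse 3, 83 in mouse 6 and 54 in mouse 9, which is 4774 (95% Poisson interval 4031 to 5614), 2609 (2078 to 3234) and 1336 (1003 to 1743) CPM. The other barcodes of these mice had 7996, 6173 and 1800. At least 1 mCherry UMI was seen in 16 of 16, 26 of 30 and 22 of 25 T and NK barcodes (100%, 86.7% and 88.0%), and in 99.9%, 97.4% and 86.4% of the others. After thinning to 500 UMIs these were 81.3%, 70.0% and 40.0% against 97.3%, 92.2% and 57.1%.

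The mCherry level fell short of that of the other barcodes by about as much as the hepatocyte gene Alb did in the same barcodes. In the T and NK barcodes mCherry stood at 59.7%, 42.3% and 74.2% of its level in the others in mice 3, 6 and 9, and Alb at 64.5%, 42.0% and 72.6%. In the endothelial rule barcodes mCherry stood at 62.7%, 45.0% and 72.2%, and Alb at 59.5%, 45.8% and 56.9%. The part of free RNA in the mCherry and Alb levels was not tested. In the PBS and AAVrh.10Null mice the T and NK barcodes held 0 mCherry UMIs. In mice 2, 4 and 7 mCherry was not listed and was set to 0. In mice 1, 5 and 8 the 0 allows up to 157, 328 and 162 CPM by the exact Poisson interval. The other barcodes of PBS mouse 1 held 273 mCherry UMIs (24.4 CPM) and those of AAVrh.10Null mouse 5 held 96 (22.7 CPM), levels under those limits in the same mice.

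**Figure D5:**
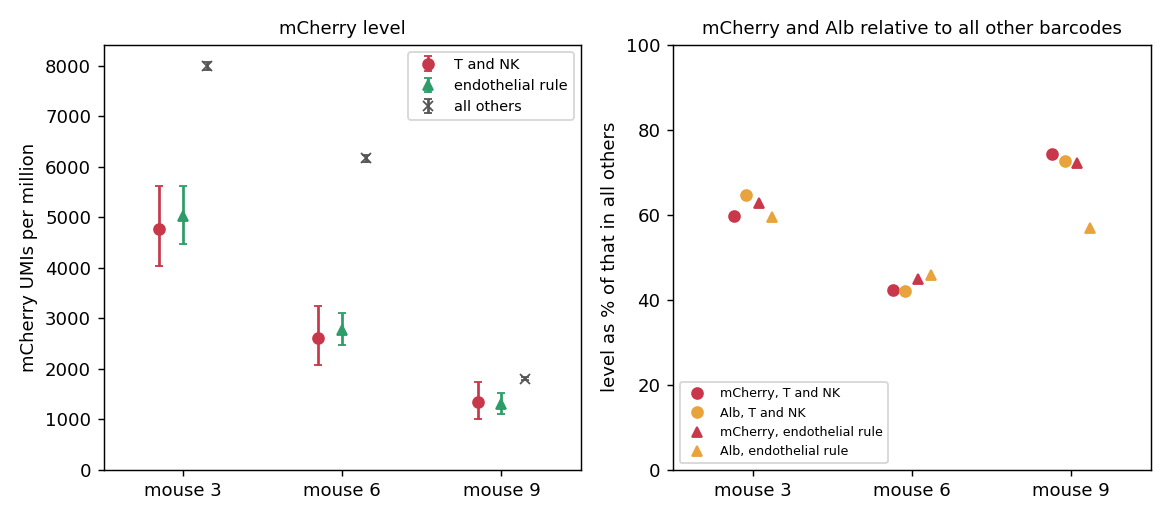
Left, mCherry level (CPM) in T and NK, endothelial rule and all other barcodes of AAVrh.10mCherry mice 3, 6 and 9, with 95% Poisson intervals; right, mCherry and Alb levels as a percentage of those in all other barcodes. In T and NK barcodes the mCherry and Alb percentages lie side by side in each mouse, at 59.7% and 64.5%, 42.3% and 42.0%, and 74.2% and 72.6%.

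Gene levels within the T and NK barcodes were then compared between treatments over the 8 mice with at least 10 such barcodes, without mouse 7. The PBS group was mice 1 and 4, and 598 genes were tested with edgeR's quasi-likelihood test. No gene passed an adjusted p of 0.05 for AAVrh.10Null against PBS (12 at an unadjusted p under 0.05, and 0 by DESeq2) or for both vectors against PBS (9, and 0 by DESeq2). For AAVrh.10mCherry, 1 gene passed against PBS and 1 against AAVrh.10Null (0.167% of those tested in each), and it was mCherry itself, with adjusted p of 1.03e-05 and 9.96e-06. Its comparison groups held 0 UMIs, and it met the level filter only through the mice given the mCherry vector. That it passed was therefore fixed by the design and supports nothing, and the fitted fold change is no bound. Without mice 2 and 8, which held no T and NK barcode ending in an undetermined base, the counts were the same, with AAVrh.10Null then mouse 5 alone. The contrasts with PBS share its mice, and in a sum over barcodes fewer cells of a kind and less RNA per cell cannot be told apart.

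Malat1, a nuclear long noncoding RNA, had the smallest p against PBS among genes that did not pass. Its level was 2813 and 2103 CPM in PBS mice 1 and 4, was 13001, 3382 and 5491 in AAVrh.10Null mice 2, 5 and 8, and was 8795, 7951 and 4897 in AAVrh.10mCherry mice 3, 6 and 9. The PBS mice were below all 6 vector mice, but the adjusted p was 0.985 for AAVrh.10Null and 0.998 for AAVrh.10mCherry.

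Gzmb was at 85.3 and 145 CPM in the PBS mice, 136, 267 and 43.9 in the AAVrh.10Null mice and 425, 314 and 445 in the AAVrh.10mCherry mice. The AAVrh.10mCherry mice lay above all others, with log2 changes of 1.73 (SE 0.68) against PBS and 1.61 (SE 0.70) against AAVrh.10Null, and neither passed in edgeR (adjusted p = 0.998 and 0.991). Klrk1, which encodes the activating receptor NKG2D, was at 85.3 and 96.5 CPM, then 68.1, 178 and 264, then 425, 471 and 173 in the same order. Mouse 9 lay within the AAVrh.10Null range, and the edgeR adjusted p against PBS was 0.998.

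Hepatocyte transcripts varied between mice within the T and NK barcodes. Mup20, a major urinary protein gene of male liver, was at 9846 and 9666 CPM in PBS mice 1 and 4, was 11129, 11747 and 3646 in the AAVrh.10Null mice and was 6245, 691 and 2696 in the AAVrh.10mCherry mice. Mouse 6 was lowest, and it was also lowest for Mup20 in the other barcodes, at 1068 CPM. The Mup genes are near-identical copies, so reads may be split between them. No gene of any list passed between treatments, and the smallest edgeR adjusted p among them was 0.708.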

How the data were processed

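RNA of single liver cells from 9 mice, 3 per treatment, was captured by Drop-seq, per the labels' protocols. Each mouse has 1 deposited table of UMI counts, whole and unscaled, with genes in rows and barcodes in columns. Per the submitters' processing notes, the genome was mm10 and Seurat was used. Which aligner, counter and annotation were used, and how barcodes were picked, is not given in the sources used here. Where a table did not list mCherry (3 of 9), it was set to 0.

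The members and gene lists were chosen with earlier results of these data known. Barcodes with at least 200 genes were kept, with no doublet removal. Only 2 T and NK barcodes had over 3 times the median UMIs of their mouse's T and NK barcodes. Each mouse is a separate sample, and UMIs were summed per mouse and class and fitted with edgeR 4.0.16 in R 4.3.3 (TMM scaling, filterByExpr, quasi-likelihood test, Benjamini-Hochberg adjustment over all genes tested), with the mouse as a block between classes of the same mice. Mice with fewer than 20 barcodes in a class were left out. Where that left too few mice (between treatments and in the Kupffer comparison) the minimum was 10. CPM were computed from the summed counts. Simulated counts with known changes were used to test the fits. DESeq2 1.42.0, RLE scaling, no filter, no block and each mouse left out were the alternatives. Library totals without TMM, shares among the 3 rule classes and fits without mice 2 and 8 were added after seeing the data. T and NK barcodes ending in an undetermined base were 37, with 23 in mouse 4 and 0 in mice 2 and 8.

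Exact permutation tests over mice were run in scipy 1.17.1, and shares have Clopper-Pearson intervals. Genes named are the rule genes and mCherry, up to 20 higher and 10 lower genes per class comparison by size of change (at least 20 UMIs, same direction in every mouse fitted), the 3 genes with the smallest p per direction where fewer passed between treatments, and up to 4 members of each list. The text gives a choice of these. Replicate numbers name the mice and are not shared between groups.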

Additional observations from a re-analysis of the deposited data

How the results depend on the processing

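Some values of the T and NK barcodes moved with the processing. The AAVrh.10mCherry minus AAVrh.10Null difference in their share, 0.143 percentage points, was -0.564 when set against the barcodes of the 3 rule classes only, a setting chosen after seeing the data. Leaving out each mouse gave -2.20 to 1.69 percentage points for the NK receptor share of AAVrh.10Null minus PBS, -1.59 to 5.55 for the CD8 share of the same contrast, -1.21 to 5.04 for AAVrh.10mCherry minus PBS and -3.84 to 3.89 for AAVrh.10mCherry minus AAVrh.10Null, which was 0.710 after thinning. None of the share tests passed in any setting run. Against all other barcodes, 815 genes were lower by DESeq2, 1480 were higher and 416 lower with library totals, and 400 to 686 were higher as mice were left out in turn. In the Kupffer comparison 38 were higher with no replicate block and 123 with library totals. Mice carry no replicate numbers shared between treatments, so the block joins classes of the same mouse. Between treatments, 0 to 1 genes passed for both vectors against PBS and 1 to 3 for AAVrh.10mCherry against AAVrh.10Null as mice were left out, and 2 with no filter on low counts. Those beside mCherry were Thrsp without mouse 4, Hmgb2 and Selenbp2 without mouse 3, Gm42418 without mouse 5 and Ube2c without the filter. Of the values of single named genes under alternatives, 894 kept their direction and side of the threshold and 5 lost significance between classes, and 357 kept theirs and 2 gained it between treatments. With 8 to 78 barcodes per mouse, a gene at 0 is known only to lie under 28.9 to 757 CPM.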

Other observations

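Gamma and delta chain constant genes were seen in 49 of the 223 T and NK barcodes (22.0%), with 112 UMIs over that list, and 24 of the 49 also held Trac. Gamma chain transcripts are also made in alpha-beta T cells, so these are not counted as gamma-delta T cells. Trdc, the delta chain constant gene, was seen in 10 barcodes, of which 7 held an NK receptor UMI and 1 held Trac.

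Receptor variable segments were rare in these tables. Trbv13-2, a beta chain segment used by many mouse NKT cells, had 13 UMIs in 13 T and NK barcodes of 5 mice and 1 UMI in all other barcodes. Traj18, the joining segment of the invariant NKT cell receptor, had 4 UMIs, in 4 mice. In all, 11 beta variable segments had 29 UMIs.

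Cell cycle genes had 199 UMIs in 44 T and NK barcodes (669 CPM, against 33.1 in all other barcodes). At least 2 of these genes were seen in 20 barcodes (8.97%), all of which held receptor chain or CD3 UMIs. Their median depth was 1620 UMIs, against 1129 in the remaining T and NK barcodes. Mouse 4 held 8 of the 20, mouse 3 held 4, mouse 8 held 3, mouse 2 held 2, mice 5, 6 and 7 held 1 each, and mice 1 and 9 held 0. No treatment test was made on these counts.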
